A study of Mus musculus with 4 samples.

Results

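The mouse Hox genes lie in 4 clusters, HoxA to HoxD, and their messenger RNA was examined in 4 cultures of the R1 mouse embryonic stem cell (ESC) line. Members were all entries of the deposited gene table whose symbol is Hox, a cluster letter a to d and a paralogue number, which gave 39 of 24421 entries: 11 in HoxA, 10 in HoxB, 9 in HoxC and 9 in HoxD. The cultures, all wild type, were ESCs treated for 48 h with 10 µM EED226, ESCs treated for 48 h with the vehicle DMSO, epiblast-like cells (EpiLCs) 72 h after induction with FGF2 and a JAK inhibitor, and ESCs. The treated and vehicle cultures were kept in ESC medium with LIF. By the study's methods, the ESCs were held before collection in medium that also contained the inhibitors PD0325901 and CHIR99021, which the label of that library does not name. ESCs were maintained on mouse embryonic fibroblast (MEF) feeders, which were removed the day before the EpiLC induction, and the ESC sample was collected after that removal. Removal of feeders is not described for the EED226 and DMSO cultures. There was 1 library per condition, from 1 line, so no test between conditions was possible. Every interval below is an exact 95% interval from the read counts and covers counting error only.

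Hox genes encode homeodomain transcription factors that pattern the anterior to posterior axis. In each cluster the genes with low paralogue numbers are used first and furthest towards the head, and those with high numbers later and further towards the tail. In ESCs the clusters are known to be held silent by Polycomb repressive complexes, and PRC2 places the H3K27me3 mark across them. EED is the PRC2 subunit that reads that mark, and EED226 is a small molecule that occupies its reading pocket and blocks PRC2 activity. EpiLCs model the formative epiblast that precedes gastrulation. The H3K27me3 mark, which the study followed with other assays, was not analysed here.

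The libraries held 46789589 (EED226), 38863803 (DMSO), 34440050 (EpiLC) and 47622558 (ESC) reads on genes. Levels are given as reads and as TPM, transcripts per 1000000, which accounts for gene length and depth. Among genes with at least 1 TPM in both libraries compared, the median ratio was 1.06 for EED226 over DMSO, 1.18 for EpiLCs over ESCs and 1.11 for DMSO over ESCs. The 6 pluripotency markers summed to 3478 TPM with EED226, 3654 TPM with DMSO, 1454 TPM in EpiLCs and 4564 TPM in ESCs. *Pou5f1*, the core pluripotency factor, was at 1873, 2142, 1109 and 2222 TPM in that order of libraries, so it was abundant in all 4. In bulk RNA, a change in the number of cells that express a gene and a change in RNA per cell cannot be told apart.

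Hox start sites usually sit in CpG-rich sequence, the kind that PRC2 occupies in ESCs. Windows running from 250 bases before to 50 bases after the start were found in the RefSeq table (GRCm38.p6) for 22 of the 39 genes, 24 windows in all. Those without a matched window included *Hoxa4*, *Hoxb2*, *Hoxb3*, *Hoxb5*, *Hoxb6*, *Hoxb7*, *Hoxb9*, *Hoxb13*, *Hoxc5*, *Hoxc6* and *Hoxc8* to *Hoxc13*. The Hox windows held a median of 14.5 CpG dinucleotides (range 4 to 45), against 7 over all 32851 windows, and 16 of 24 (66.7%) held at least 12, against 39.6% of all windows. The bases upstream of the start are shown for 4 members that carry the EpiLC comparison. *Hoxb1* (chr11:96365508-96365757, plus strand) and *Hoxa5* (chr6:52204588-52204837, minus strand) were higher in EpiLCs than in ESCs. *Hoxd13* (chr2:74667975-74668224, plus strand) and *Hoxd9* (chr2:74697513-74697762, plus strand) were lower. Sequences run 5′ to 3′ and capitals mark CpG dinucleotides.
Hoxb1: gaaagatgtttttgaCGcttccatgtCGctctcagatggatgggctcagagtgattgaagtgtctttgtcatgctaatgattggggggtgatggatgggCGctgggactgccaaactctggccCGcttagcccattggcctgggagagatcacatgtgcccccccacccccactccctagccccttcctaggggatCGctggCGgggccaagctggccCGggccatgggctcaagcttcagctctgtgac
Hoxa5: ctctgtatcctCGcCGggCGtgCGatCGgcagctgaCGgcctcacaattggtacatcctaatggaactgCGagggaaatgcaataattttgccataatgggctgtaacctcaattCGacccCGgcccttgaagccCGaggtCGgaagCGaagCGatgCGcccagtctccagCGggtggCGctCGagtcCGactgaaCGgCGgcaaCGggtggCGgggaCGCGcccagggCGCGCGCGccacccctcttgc
Hoxd13: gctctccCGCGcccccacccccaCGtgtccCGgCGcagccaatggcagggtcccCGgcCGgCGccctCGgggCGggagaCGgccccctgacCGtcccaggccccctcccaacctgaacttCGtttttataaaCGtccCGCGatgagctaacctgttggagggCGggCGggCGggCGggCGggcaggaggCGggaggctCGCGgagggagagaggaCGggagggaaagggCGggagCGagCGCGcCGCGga
Hoxd9: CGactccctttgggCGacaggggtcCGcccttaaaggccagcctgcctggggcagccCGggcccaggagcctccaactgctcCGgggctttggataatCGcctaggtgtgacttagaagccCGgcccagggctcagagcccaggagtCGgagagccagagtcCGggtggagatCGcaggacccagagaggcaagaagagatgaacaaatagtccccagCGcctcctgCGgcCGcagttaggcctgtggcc
These stretches hold 7, 28, 31 and 13 CpG in the order printed, so of these 4 the CpG-poorest and a CpG-rich one both belong to genes that were higher in EpiLCs. The windows were searched on both strands for 4 motifs. TGATNGAT, a composite PBX-HOX site, was in 3 of 24 Hox windows (12.5%), against 2.10% of all windows. The 3 were those of *Hoxa2* and *Hoxb1* and 1 of the 2 *Hoxd11* windows. TTTATG, a CDX site, was in 5 (20.8% against 11.9%), TATAAA in 4 (16.7% against 13.6%) and GGGCGG, an Sp box, in 10 (41.7% against 35.7%). A match describes letters in the window and no binding.

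All 39 genes had a read in at least 1 library, and most stood far under the median gene. Their reads summed to 388 with EED226, 312 with DMSO, 1004 in EpiLCs and 1615 in ESCs, or 8.29, 8.03, 29.2 and 33.9 per 1000000 reads on genes. The median Hox gene was at 0.0743, 0.0811, 0.297 and 0.274 TPM, while the median gene with reads was at 8.87, 8.22, 9.86 and 6.80 TPM. In the same order, 3, 3, 11 and 8 Hox genes reached 1 TPM, and 2, 6, 7 and 5 had no read.

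**Figure D1:**
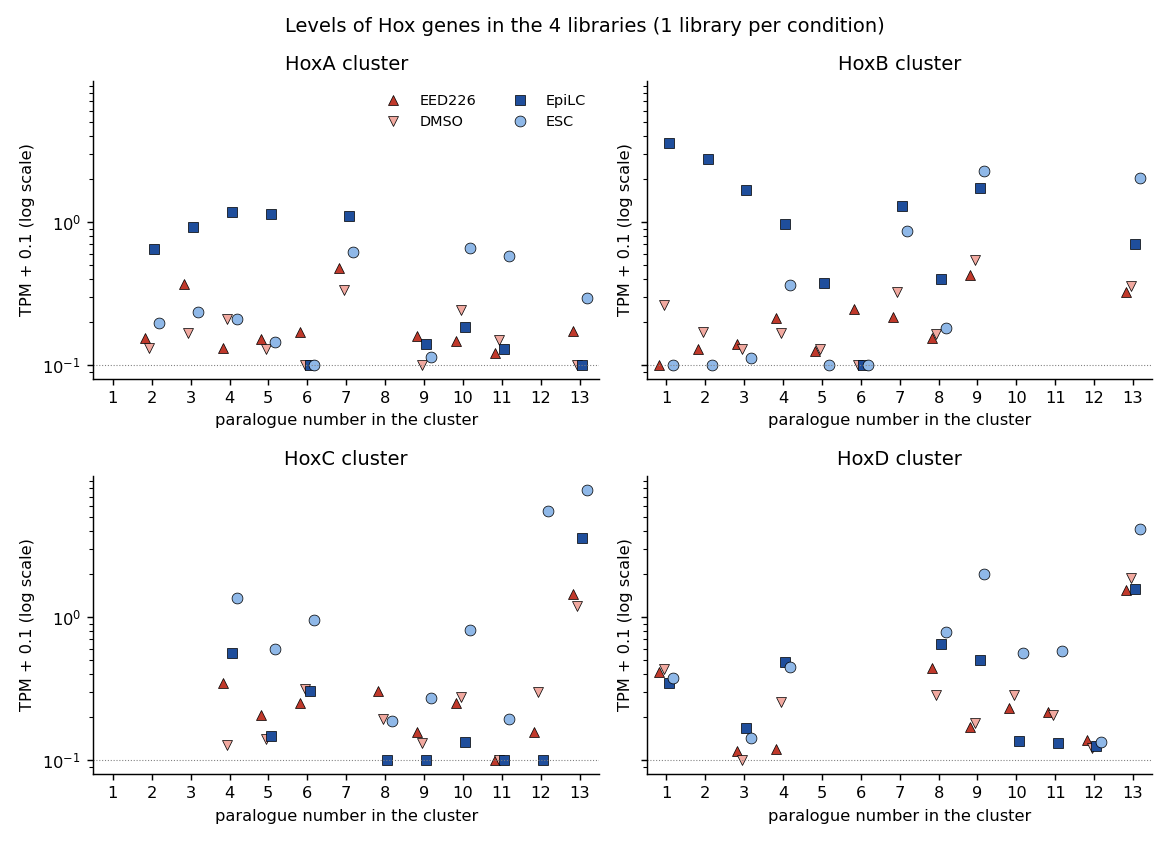
TPM plus 0.1, on a log axis, for 38 Hox genes against their paralogue number, 1 panel per cluster and 1 symbol per library, with no replicates. The dotted line is 0 TPM. EpiLCs (dark squares) stand highest at the low numbers of HoxA and HoxB, where *Hoxb1* reached 3.47 TPM, and ESCs (light circles) at the high numbers, where *Hoxc13* reached 7.70 TPM.

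The reads were spread unevenly over the genes, and in ESCs *Hoxc13*, *Hoxd13* and *Hoxb9* held 50.5% of them. Genes 9 to 13, the posterior end, took 52.8% of Hox reads with EED226, 60.9% with DMSO, 28.9% in EpiLCs and 78.3% in ESCs. ESCs thus held mainly posterior Hox reads and EpiLCs mainly anterior ones.

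**Figure D2:**
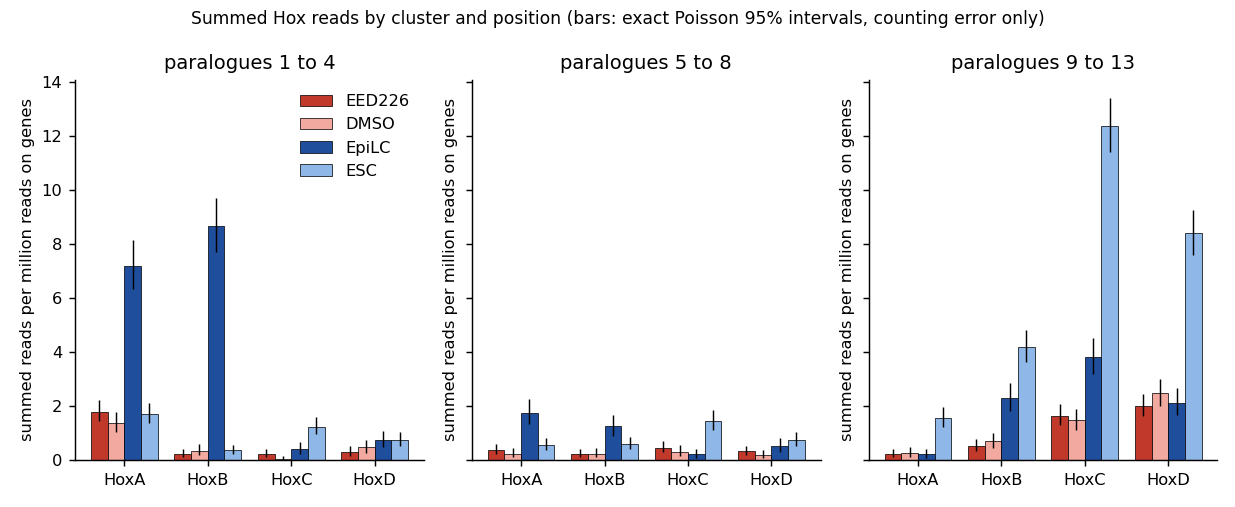
Summed Hox reads per 1000000 reads on genes, by cluster and paralogue range, in the 4 libraries. Bars start at 0 and error bars are exact Poisson 95% intervals, which cover counting error only. In EpiLCs HoxA and HoxB paralogues 1 to 4 stand at 7.20 and 8.68 per 1000000, and in ESCs HoxC and HoxD paralogues 9 to 13 stand at 12.4 and 8.42 per 1000000.

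The EED226 and DMSO libraries ask whether blocking PRC2 for 48 h was accompanied by more Hox RNA. The summed Hox reads, scaled as TPM is, had a ratio of 1.07 (interval 0.918 to 1.24), so a difference was not detectable at this depth. HoxA had 112 reads with EED226 and 72 with DMSO, a ratio of 1.34 (0.985 to 1.82). HoxC had 108 and 70 reads, a ratio of 1.33 (0.972 to 1.82). HoxB had 45 and 49 reads, a ratio of 0.789 (0.515 to 1.21), and HoxD had 123 and 121 reads, a ratio of 0.873 (0.674 to 1.13). The interval of each cluster contained 1, so none of the 4 differed detectably. By position, the ratio was 1.19 (0.895 to 1.595) for paralogues 1 to 4, 1.51 (0.993 to 2.33) for 5 to 8 and 0.927 (0.757 to 1.14) for 9 to 13. Paralogue group 3 was the only 1 of the 13 groups with an interval above 1 (3.09, 1.11 to 10.7).

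A gene was counted as higher or lower at 1.5-fold with at least 10 reads in both libraries together. With EED226, 5 Hox genes were higher (*Hoxa3*, *Hoxa7*, *Hoxc4*, *Hoxc8* and *Hoxd8*), 1 was lower (*Hoxa10*), 10 were neither and 23 had too few reads. Of all 15333 genes with enough reads, 9.44% were higher and 2.68% lower. Genes with few reads scatter more. Among the 5706 genes with 10 to 600 reads, 21.1% were higher and 7.06% lower, and among the 3684 with 10 to 160 reads, which holds the 11 to 152 reads of these Hox genes, 26.8% and 10.3%. Of the 16 Hox genes with enough reads, 5 higher is 31.3% and 1 lower is 6.25%, near these shares. Among the 16, the counting interval lay above 1 for 2, *Hoxa3* and *Hoxc4*, and below 1 for 0, against 19.1% and 3.89% of the 5706 genes and 11.8% and 2.90% of the 3684. Among the 23 with too few reads it lay below 1 for 2, *Hoxb1* and *Hoxd4*. All 5 genes called higher had under 10 reads with DMSO and so passed the minimum through the EED226 library, and none of them is among the 5 Hox genes with at least 10 reads in each library. Over all 39 genes the median log2 ratio, after adding 0.1 TPM, was 0.05, against 0.00 over all genes and 0.09 over genes with a read.

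The members called higher have paralogue numbers from 3 to 8. *Hoxc4*, of a group that acts at the level of the hindbrain and neck, had 10 reads (0.246 TPM) with EED226 and 1 read (0.0286 TPM) with DMSO, a ratio of 8.59 (1.22 to 373). *Hoxa3*, which patterns pharyngeal organs, had 14 reads (0.269 TPM) and 3 reads (0.0670 TPM), a ratio of 4.01 (1.12 to 21.8). Both stayed under 0.3 TPM, and ESCs had more *Hoxc4* than EED226-treated cells, with 59 reads (1.26 TPM). 25.4% of the exonic bases of *Hoxa3* lie under genes of the other strand, and reads of such genes cannot be set apart because no source used here states whether counting used strand.

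Among the genes of the trunk, *Hoxc8* had 10 reads (0.206 TPM) with EED226 and 4 (0.0959 TPM) with DMSO, a ratio of 2.15 (0.620 to 9.38). *Hoxd8* had 15 reads (0.339 TPM) and 7 reads (0.184 TPM), a ratio of 1.84 (0.707 to 5.34). *Hoxa7* had 15 reads (0.375 TPM) and 8 reads (0.233 TPM), a ratio of 1.61 (0.641 to 4.39), and 20.4% of its exonic bases lie under Hoxaas3 on the other strand. All 3 intervals contained 1. *Hoxc6*, another trunk gene, had 5 and 6 reads (0.153 and 0.214 TPM).

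For *Hoxc13* and *Hoxd13*, which had more reads, a difference was not detectable at this depth. *Hoxc13*, known for its role in hair and nails, had 68 reads (1.36 TPM) with EED226 and 47 reads (1.10 TPM) with DMSO, a ratio of 1.24 (0.845 to 1.84). *Hoxd13*, a gene of the digits and genital tubercle, had 74 reads (1.45 TPM) and 78 reads (1.78 TPM), a ratio of 0.815 (0.585 to 1.14). Both intervals contained 1. *Hoxb9* had 18 reads (0.325 TPM) with EED226 and 21 (0.442 TPM) with DMSO, and *Hoxd1* had 12 (0.314 TPM) and 11 (0.335 TPM).

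Of the remaining posterior genes, which act in the lumbosacral region, limbs and tail, *Hoxa10* had 3 reads (0.0466 TPM) with EED226 and 8 reads (0.145 TPM) with DMSO, a ratio of 0.322 (0.0551 to 1.34). *Hoxd11* had 10 and 8 reads (0.116 and 0.108 TPM), *Hoxd10* had 5 and 6 (0.132 and 0.184 TPM), and *Hoxb13* and *Hoxc10* had 6 and 6 each (0.223 and 0.260 TPM for *Hoxb13*, 0.153 and 0.178 TPM for *Hoxc10*). None of the posterior genes was called higher. Of the 23 genes with too few reads, 6 were at least 1.5-fold higher, 6 at least 1.5-fold lower and 4 neither, while 5 had reads with EED226 alone, 1 with DMSO alone and 1 with neither. The anterior genes *Hoxd4*, with 1 read with EED226 and 7 with DMSO (ratio 0.123, 0.00272 to 0.955), and *Hoxb1*, with 0 and 6 (upper bound of the interval 0.730), were the 2 with intervals below 1. The Spearman correlation of paralogue number with the log2 ratio was -0.09 over the 39 genes, which share the same libraries.

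**Figure D3:**
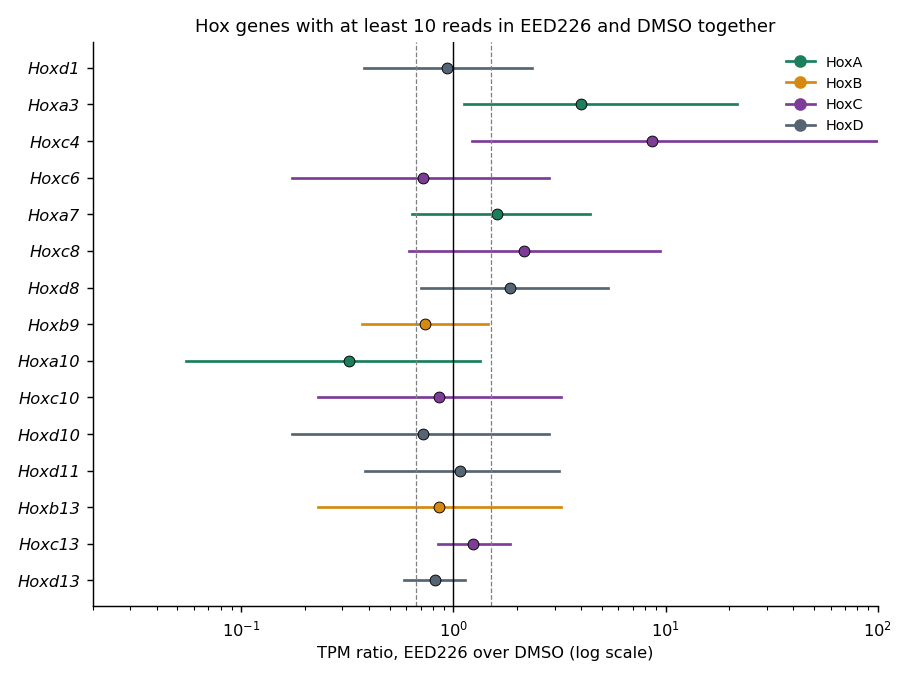
TPM ratio of EED226 over DMSO on a log axis for 15 Hox genes with at least 10 reads in both libraries together, from paralogue 1 (top) to 13 (bottom), colored by cluster. Bars are exact 95% counting intervals (that of *Hoxc4* runs to 373, past the axis), and dashed lines mark 1.5-fold. Only the intervals of *Hoxa3* and *Hoxc4* lie clear of 1.

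The EpiLC and ESC libraries compare the clusters at the exit from the naive state. The summed Hox reads had a ratio of 0.958 (0.885 to 1.04), and its parts differed in opposite directions. HoxA had 315 reads in EpiLCs and 181 in ESCs, a ratio of 2.68 (2.23 to 3.24). HoxB had 421 and 244 reads, a ratio of 2.66 (2.27 to 3.13). HoxC had 152 and 718 reads, a ratio of 0.326 (0.272 to 0.389), and HoxD had 116 and 472 reads, a ratio of 0.379 (0.307 to 0.465). Without the genes overlapped on the other strand, HoxA was at 1.46 and HoxB at 1.64. HoxB was at 5.20 without *Hoxb9* and HoxC at 0.122 without *Hoxc13*. Without *Hoxc13*, without HoxC or without HoxD the ratio of all Hox reads was above 1 (1.15, 1.46 and 1.20), so the direction of the total rests on these genes.

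Position in the cluster separated the genes as well. Paralogues 1 to 4 had 586 reads in EpiLCs and 193 in ESCs, a ratio of 4.68 (3.97 to 5.54). Paralogues 5 to 8 had 128 and 158 reads, a ratio of 1.249 (0.981 to 1.59). Paralogues 9 to 13 had 290 and 1264 reads, a ratio of 0.354 (0.310 to 0.402). In HoxB the ratio was 27.1 (16.7 to 47.2) for paralogues 1 to 4 and 0.612 (0.466 to 0.798) for the 2 genes at 9 to 13. In HoxA it was 4.72 (3.66 to 6.14) and 0.146 (0.0567 to 0.316), the latter with 7 reads in EpiLCs. HoxC was lower in EpiLCs at both ends, 0.366 (0.189 to 0.663) and 0.342 (0.281 to 0.414). HoxD was not detectably different at paralogues 1 to 4 (1.07, 0.616 to 1.83) and lower at 9 to 13 (0.281, 0.216 to 0.361). The Spearman correlation of paralogue number with the log2 ratio was -0.72 over the 39 genes, and -0.77 in HoxA (n = 11), -0.94 in HoxB (n = 10), -0.02 in HoxC (n = 9) and -0.52 in HoxD (n = 9). These are descriptions across genes of the same libraries.

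At 2-fold and at least 10 reads, 10 Hox genes were higher in EpiLCs (among them *Hoxa2* to *Hoxa5*, *Hoxb1* to *Hoxb4* and *Hoxb8*), 13 were lower, 6 were neither and 10 had too few reads. Over 15644 genes, 31.8% were higher and 12.8% lower, and over the 5844 genes with 10 to 600 reads 46.7% and 19.0%. The 29 Hox genes with enough reads gave 34.5% higher and 44.8% lower, and 12 of them had at least 10 reads in each library. Of the 10 called higher, 8 had under 10 reads in ESCs and so passed the minimum through the EpiLC library. Likewise, most of the 13 called lower had under 10 reads in EpiLCs and so passed it through the ESC library. By position, 8 of 12 genes at 1 to 4 were higher and 1 lower, while 0 of 16 at 9 to 13 were higher and 10 lower. By cluster, HoxC and HoxD had 0 higher and 10 lower genes, and HoxA and HoxB 10 higher and 3 lower. Over all 39 genes the median log2 ratio was -0.11, against 0.33 over genes with a read.

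The highest ratios were those of *Hoxb1*, *Hoxb2* and *Hoxb3*, anterior genes of HoxB. *Hoxb1*, which specifies a segment of the hindbrain, had 110 reads (3.47 TPM) in EpiLCs and 0 in ESCs, at least 56.5-fold higher at a floor of 3 reads. *Hoxb2* had 66 reads (2.66 TPM) and 0, at least 33.9-fold higher. *Hoxb3* had 89 reads (1.57 TPM) and 1 (0.0114 TPM), a ratio of 137 (24.0 to 5479). These 3 genes were also near 0 in the treated cultures, with at most 3 reads with EED226 and 6 with DMSO. *Hoxb4* had 34 reads (0.868 TPM) in EpiLCs and 16 (0.265 TPM) in ESCs, a ratio of 3.28 (1.76 to 6.36). *Hoxb2* and *Hoxb3* share 27.3% and 52.9% of their exonic bases with Hoxb3os on the other strand, whereas *Hoxb1* has no such overlap.

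Genes of HoxA were higher in EpiLCs too. *Hoxa2*, a gene of the second pharyngeal arch, had 15 reads (0.554 TPM) in EpiLCs and 4 (0.0958 TPM) in ESCs, a ratio of 5.78 (1.84 to 23.9). *Hoxa3* had 32 (0.825 TPM) and 8 (0.134 TPM), a ratio of 6.17. *Hoxa4* had 25 reads (1.07 TPM) in EpiLCs and 4 (0.111 TPM) in ESCs, a ratio of 9.64, with 16.0% of its exonic bases under Gm29430 on the other strand, and *Hoxa5*, a gene of lung and neck development, had 30 (1.05 TPM) and 2 (0.0453 TPM), a ratio of 23.1 (5.87 to 200). The ratios thus ran between 5.78 and 23.1 over 4 neighbouring genes, with intervals that overlap. *Hoxa7* had 30 reads (1.01 TPM) and 24 (0.523 TPM), a ratio of 1.93 (1.09 to 3.44), short of 2-fold.

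In the middle of HoxB, *Hoxb8* had 12 reads (0.297 TPM) in EpiLCs and 5 (0.0803 TPM) in ESCs, a ratio of 3.70 (1.21 to 13.4). *Hoxb7* had 23 and 23 reads (1.19 and 0.770 TPM), a ratio of 1.54 (0.827 to 2.88). *Hoxd8*, with 18 and 35 reads (0.546 and 0.689 TPM), and *Hoxd4*, with 15 and 21 reads (0.384 and 0.349 TPM), were neither higher nor lower. *Hoxd1*, the anterior end of HoxD, had 7 and 12 reads (0.246 and 0.274 TPM), so the low paralogues of HoxD did not share the ratios of those of HoxA and HoxB.

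HoxC lacks paralogues 1 to 3. Its anterior genes were lower in EpiLCs: *Hoxc4* had 14 reads (0.463 TPM) in EpiLCs and 59 (1.26 TPM) in ESCs, a ratio of 0.366, *Hoxc5* had 2 (0.0480 TPM) and 32 (0.498 TPM), and *Hoxc6* had 5 (0.206 TPM) and 32 (0.854 TPM). *Hoxc10* had 1 read (0.0343 TPM) and 32 (0.711 TPM), and 8.70% of its exonic bases are shared with *Hoxc5* on the same strand. The posterior end held the highest Hox level of all: *Hoxc13* had 130 reads (3.50 TPM) in EpiLCs and 441 (7.70 TPM) in ESCs, a ratio of 0.454 (0.371 to 0.554). Its neighbour *Hoxc12* had 0 reads in EpiLCs and 108 (5.45 TPM) in ESCs, a ratio of at most 0.0428 at the floor of 3 reads.

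Posterior genes of HoxD, HoxA and HoxB were also lower in EpiLCs. *Hoxd13* had 56 reads (1.48 TPM) in EpiLCs and 236 (4.04 TPM) in ESCs, a ratio of 0.366 (0.268 to 0.491). *Hoxd9* had 13 reads (0.406 TPM) and 95 (1.92 TPM), a ratio of 0.211 (0.108 to 0.378). *Hoxd10* had 1 and 20 reads (0.0354 and 0.460 TPM), and *Hoxd11* had 2 and 48 reads (0.0311 and 0.484 TPM). *Hoxa10* had 4 and 41 reads (0.0834 and 0.555 TPM), and *Hoxa11*, a gene of the forearm and uterus, had 1 and 26 reads (0.0286 and 0.483 TPM). *Hoxb13*, a gene of the tail and prostate, had 12 and 60 reads (0.599 and 1.94 TPM), a ratio of 0.308 (0.151 to 0.579). *Hoxb9* was neither higher nor lower at 2-fold, with 67 and 139 reads (1.63 and 2.19 TPM) and a ratio of 0.743 (0.547 to 1.00). For *Hoxa11*, 35.0% of exonic bases lie under Hoxa11os, which had 0 reads in EpiLCs and 12 in ESCs. The 9 genes with too few reads and no value so far, *Hoxa6*, *Hoxa9*, *Hoxa13*, *Hoxb5*, *Hoxb6*, *Hoxc9*, *Hoxc11*, *Hoxd3* and *Hoxd12*, had 0 to 8 reads in any library.

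**Figure D4:**
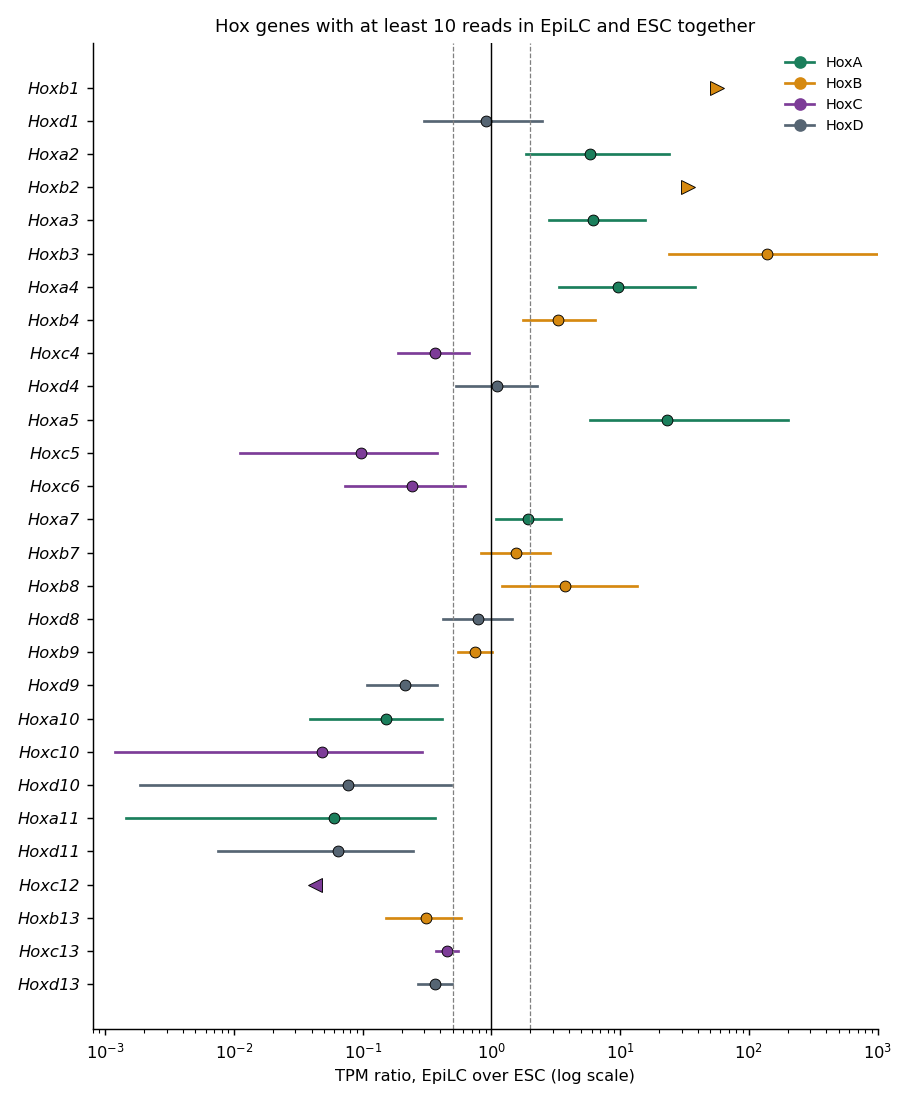
TPM ratio of EpiLC over ESC on a log axis for 28 Hox genes with at least 10 reads in both libraries together, from paralogue 1 (top) to 13 (bottom), colored by cluster. Bars are exact 95% counting intervals (that of *Hoxb3* runs to 5479, past the axis), triangles are bounds at a floor of 3 reads, and dashed lines mark 2-fold. HoxA and HoxB genes at the top lie right of 1 and most genes at the bottom left of it.

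DMSO-treated ESCs and ESCs differ in medium and handling as well as in vehicle, which cannot be told apart. This comparison was added after the levels had been seen, and it shares a library with each of the others. Hox reads numbered 312 with DMSO and 1615 in ESCs, a ratio of 0.258 (0.228 to 0.292). By cluster the ratio was 0.130 (0.100 to 0.167) in HoxC, 0.268 (0.193 to 0.366) in HoxB, 0.343 (0.278 to 0.419) in HoxD and 0.532 (0.399 to 0.702) in HoxA. Without genes overlapped on the other strand HoxA was at 0.247, beside 0.242 in HoxB and 0.340 in HoxD, so the order of these 3 clusters does not hold. At 2-fold, 0 Hox genes were higher, 19 lower, 3 neither and 17 had too few reads, while of 15368 genes 19.5% were higher and 10.8% lower, and of the 5816 with 10 to 600 reads 34.8% and 19.4%. Of the 22 Hox genes with enough reads, 5 had at least 10 reads in each library. Most of the 19 lower genes had under 10 reads with DMSO and so passed the minimum through the ESC library. *Hoxa3* and *Hoxd1* were among the 3 that were neither. *Hoxc13* had 47 reads with DMSO and 441 in ESCs, a ratio of 0.142 (0.103 to 0.193), *Hoxc12* had 3 and 108, and *Hoxd9* had 3 and 95. The Hox level of the DMSO library, against which EED226 was read, was thus far under that of the ESC library.

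Known regulators and partners of Hox genes were read from lists. The genes of the core PRC2 subunits were expressed in all libraries: *Eed* was at 220 TPM with EED226, 258 TPM with DMSO, 103 TPM in EpiLCs and 327 TPM in ESCs, *Ezh2* at 175, 155, 156 and 154 TPM, and *Suz12* at 153, 132, 160 and 113 TPM. Of 12 PRC2 genes, 2 were higher with EED226 (*Phf19* and *Lcor*, 16.7%) and 0 lower. In EpiLCs 1 of the 12 was higher (*Ezh1*, 8.33%) and 1 lower (*Eed*, 8.33%). Over all genes with enough reads, 9.44% were higher and 2.68% lower with EED226, and 31.8% and 12.8% in EpiLCs. Of 10 MLL and trithorax genes, which oppose Polycomb, 0 were higher or lower with EED226, while in EpiLCs 3 were higher (30%) and 1 lower (10%). Among them *Kmt2a*, which encodes a methyltransferase that maintains Hox expression, was at 29.2 TPM in EpiLCs and 6.89 TPM in ESCs.

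The TALE cofactors, homeodomain proteins that bind DNA with Hox proteins, had 2 of 9 members higher with EED226 (22.2%), near the 21.1% of genes with 10 to 600 reads. *Meis1* was at 3.66 TPM with EED226 and 0.924 TPM with DMSO, a ratio of 3.96 (2.96 to 5.38), and *Meis2* at 1.67 and 0.830 TPM, a ratio of 2.01 (1.53 to 2.66). The other 7 of the 9 cofactors were neither higher nor lower. In EpiLCs over ESCs 3 were higher (33.3%) and 2 lower (22.2%), against 31.8% and 12.8% of all genes. *Pbx3* was at 30.1 TPM in EpiLCs and 5.18 TPM in ESCs, a ratio of 5.80 (5.15 to 6.55), and *Meis2* at 4.07 and 16.9 TPM, a ratio of 0.241 (0.213 to 0.270). The Cdx genes, activators of the trunk Hox genes, were low: *Cdx1* had 20 reads with EED226 and 11 with DMSO, *Cdx4* had 8 and 3, and *Cdx2* had 35 and 25. *Cdx1* (interval 0.71 to 3.61) and *Cdx4* (0.550 to 13.4) counted as higher, as did 26.8% of genes with 10 to 160 reads. Both intervals contained 1. In EpiLCs over ESCs 2 of the 3 were lower, as were 19.0% of genes with 10 to 600 reads. *Cdx4* had 5 reads in EpiLCs and 56 in ESCs (interval 0.0430 to 0.341). *Cdx2* had 2 and 8, with an interval that contained 1 (0.0399 to 1.93). Of the retinoic acid pathway, which induces anterior Hox genes, 2 of 16 genes with enough reads were higher (12.5%) and 1 lower (6.25%) with EED226. Over all genes these shares were 9.44% and 2.68%. In EpiLCs 6 of 15 were higher (40.0%), between the 31.8% of all genes and the 46.7% of genes with few reads. There 2 were lower (13.3%), against 12.8% of all genes. *Rarb*, a retinoic acid receptor and known target, was at 1.08 TPM in EpiLCs and 0.101 TPM in ESCs, a ratio of 10.6 (5.25 to 24.3), and *Cyp26b1*, which degrades retinoic acid, at 0.568 and 0.0526 TPM.

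Other homeobox genes of the same ANTP class serve as the nearest relatives. Of 60 in the table, 35 had enough reads with EED226 and DMSO, of which 14 were higher (40.0%) and 4 lower (11.4%), against 5 (31.3%) and 1 (6.25%) of the 16 Hox genes with enough reads and 26.8% and 10.3% of all genes with 10 to 160 reads. In EpiLCs over ESCs 8 of 37 were higher (21.6%) and 17 lower (45.9%), against 34.5% and 44.8% of the 29 Hox genes with enough reads. Over all genes these shares were 31.8% and 12.8%, and over genes with 10 to 600 reads 46.7% and 19.0%. Whether the Hox share differs from that of these relatives was not tested. *Evx1*, next to *Hoxa13*, was at 1.58 TPM with EED226 and 1.07 TPM with DMSO, a ratio of 1.48 (1.05 to 2.11), and at 0.0456 TPM in EpiLCs and 0.724 TPM in ESCs.

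Fibroblasts are known to express Hox genes, and the line had been maintained on MEF feeders, with a removal step before the EpiLC and ESC samples. The 12 fibroblast markers summed to 70.6 TPM with EED226, 66.1 TPM with DMSO, 16.9 TPM in EpiLCs and 38.7 TPM in ESCs. With EED226, 2 of the 10 with enough reads were higher (*Twist1* and *Prrx1*, 20%) and 0 lower, against 21.1% and 7.06% of genes with 10 to 600 reads. In EpiLCs, of 10 with enough reads 1 was higher (*Dcn*, 10%) and 5 lower (50%), against 31.8% and 12.8% of all genes. *Postn*, *Lum* and *Twist2* were at 0 there, but *Lum* and *Twist2* had 1 read each in ESCs. In DMSO over ESCs, 6 of the 11 markers with enough reads were higher (54.5%) and 0 lower. Over all genes 19.5% were higher and 10.8% lower, and over those with 10 to 600 reads 34.8% and 19.4%. The part of feeder cells in the Hox values was not tested. For the other cell types, summed TPM in EED226, DMSO, EpiLC and ESC libraries was 12.2, 12.1, 4.50 and 5.26 for primitive streak and mesoderm markers, 195, 159, 30.4 and 161 for neural markers (of which *Tubb3* alone gave 183, 150, 20.5 and 153), 10.1, 5.47, 23.0 and 5.96 for primitive endoderm markers, and 97.4, 67.1, 111 and 42.3 for trophoblast markers. With EED226, 5 of 6 primitive endoderm markers were higher, against 9.44% of all genes and 21.1% of those with 10 to 600 reads. Some of the 5 had few reads and intervals that contained 1. *Gata4*, with the highest ratio, was at 4.54 TPM against 1.42 TPM with DMSO. The neural marker *Pax6* was at 5.77 TPM in EpiLCs and 1.85 TPM in ESCs, against the direction of the neural sum. In EpiLCs *Krt8* gave 88.9 TPM of the trophoblast sum and *Dab2* 17.3 TPM of the primitive endoderm sum. Of 5 trophoblast markers with enough reads, 2 were higher in EpiLCs than in ESCs and 2 lower (*Cdx2* and *Gata3*). Of 6 primitive endoderm markers 3 were higher and 0 lower. Over all genes 31.8% were higher and 12.8% lower. The part of these cell types in the Hox values was not tested either.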

How the data were processed

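RNA-seq libraries were made by the authors with a stranded mRNA kit. Processing notes by the submitters list, without their roles, STAR 2.6.0a, Bowtie2 2.2.4 and featureCounts 1.6.2, besides bcl2fastq 2.20 and the build mm10. Whether counting used strand is not given in the sources used for this work. The authors deposited a count of reads per gene and TPM for each library. TPM was also recomputed from these counts and the deposited gene lengths, and differed by rounding alone. 2 entries sharing 1 symbol were left out.

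Ratios of TPM were given intervals from the exact binomial division of reads between 2 libraries, and sums exact Poisson intervals, at 95%, for counting error only. A floor of 3 reads stood in for 0. Counts of higher or lower genes needed at least 10 reads in both libraries together and 1.5-fold (EED226 over DMSO) or 2-fold (the others). Plots and rank correlations added 0.1 TPM. With 1 library per condition no replicate spread exists, and no count test was run. The calculations were tested on simulated data.

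The members and gene lists were chosen with earlier results of these data known. Hox genes with at least 10 reads in a comparison were named, and of each other list up to 4 genes with the highest and lowest ratios plus named regulators. Results that need either of 2 genes by name are not reported here and are left out of the plots of single genes, while sums and counts include them. Genes named outside that rule were chosen after their values were seen. The comparison of DMSO over ESCs, the backgrounds of genes with 10 to 600 and 10 to 160 reads and the sum without the most abundant gene were added after seeing the data. Positions and strand overlaps are from GENCODE M21 and promoters from RefSeq GRCm38.p6. Intervals used scipy 1.17.1 and tables pandas 2.3.3 with numpy 2.4.6 in Python 3.11.15, and plots matplotlib 3.10.9.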

Additional observations from a re-analysis of the deposited data

How the results depend on the processing

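With 1 library per condition, there was no replicate to leave out, and low reads limit precision. Over all settings tried, 101 values of the summary results stayed and 37 moved, and for single genes 213 stayed and 31 moved. Ratios that stayed lay inside the counting interval of the main setting, which is wide where reads are few. *Hoxa3* with EED226 thus stayed although its ratio after adding 1 TPM was 1.19, short of 1.5-fold. No named gene turned from higher to lower or the reverse. The ratio of all Hox genes, whose main intervals contained 1, crossed 1 for EED226 over DMSO (0.988 without HoxA) and EpiLC over ESC (1.46 without HoxC).

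For EED226 over DMSO, the 5 higher genes became 11 with at least 1 read, 0 with at least 30 reads, 3 at 2-fold, 2 by the interval and 0 after adding 1 TPM. The 1 lower gene became 8 with at least 1 read, 0 with at least 30 reads, 4 at a lower fold limit, 0 by the interval and 0 after adding 1 TPM. For EpiLC over ESC, adding 1 TPM left 4 higher and 3 lower. For DMSO over ESC, at least 1 read gave 2 higher, while 4-fold gave 9 lower and adding 1 TPM gave 6 lower.

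For EpiLC over ESC, the ratio of HoxA was 1.46 without genes overlapped on the other strand. That of HoxB was 2.26 after centring on the median gene, 5.20 without *Hoxb9* and 1.64 without overlapped genes. That of HoxC was 0.253 as a sum of TPM and 0.122 without *Hoxc13*. For all Hox genes it was 0.860 as reads scaled to the library total, 0.816 centred, 0.872 as a sum of TPM, 0.741 without HoxA, 0.656 without HoxB, 1.46 without HoxC, 1.20 without HoxD, 1.15 without *Hoxc13* and 0.589 without overlapped genes.

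For DMSO over ESC, HoxA was at 0.247 without overlapped genes, and HoxD at 0.243 without *Hoxd13*. All Hox genes were at 0.224 without HoxA, 0.361 without HoxC, 0.223 without HoxD, 0.302 without *Hoxc13* and 0.217 without overlapped genes. The cause of each shift was not tested, except that leaving genes out changes which genes are summed.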

Other observations

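Of 23 genes flanking the clusters, 21 had enough reads with EED226 and DMSO, of which 1 was higher (4.76%) and 0 lower. Over all genes 9.44% were higher and 2.68% lower. The higher gene, *Nfe2*, 211 kb from HoxC, had 23 reads with EED226 and 5 with DMSO, a ratio of 3.95 (1.47 to 13.3). In EpiLCs over ESCs 22 had enough reads, of which 3 were higher (13.6%) and 6 lower (27.3%). Over all genes 31.8% were higher and 12.8% lower there. *Skap1*, 96.3 kb from HoxB on the *Hoxb1* side, had 63 reads in EpiLCs and 2 in ESCs, a ratio of 48.6 (12.9 to 410), and *Jazf1*, 508 kb from HoxA on the *Hoxa13* side, 76 and 7 reads, a ratio of 16.7 (7.74 to 43.0). On the *Hoxb13* side, *Ttll6* (28.9 kb) had 47 and 412 reads, a ratio of 0.176 (0.127 to 0.238), and *Calcoco2* (82.4 kb) 198 and 23529 reads, or 6.39 and 493 TPM, a ratio of 0.0130 (0.0112 to 0.0149). *Atp5g1* (119 kb) had a ratio of 0.331, and 3 other flanking genes of HoxB did not pass 2-fold: *Snx11* (0.772) and *Cbx1* (1.69) on the *Hoxb1* side and *Ube2z* (1.05) on the *Hoxb13* side. These genes were chosen after their values were seen.

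Of 16 non-coding RNAs of the clusters found by symbol, 3 had enough reads with EED226 and DMSO, of which 0 were higher and 2 lower. Both of these had 5 reads with EED226 and 7 with DMSO, an interval of 0.154 to 2.25. Of genes with 10 to 160 reads, 10.3% were lower. In EpiLCs over ESCs 4 had enough reads, of which 1 was higher (Hotairm1, 20 and 11 reads) and 3 lower. Of genes with 10 to 600 reads, 46.7% were higher and 19.0% lower there. Gm53 had 56 reads in EpiLCs and 215 in ESCs, a ratio of 0.402 (0.294 to 0.541), and 25 reads each with EED226 and DMSO.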
